A study of Homo sapiens with 24 samples.

Results

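In MM1S cells the effect of dexamethasone (Dex) was set against that of a mimetic of mir-150-5p, gene by gene, as the change with Dex minus the change with the mimetic. The comparison drew on 12 of the 24 Illumina HumanHT-12 BeadChip arrays of the series, chosen by their titles as the MM1S arrays, with 3 arrays in each of 4 groups. MM1S is a glucocorticoid (GC) sensitive human multiple myeloma line, and MM1R, used here only as a reference, is its GC resistant counterpart. Cells were left untreated, exposed to 1 µM Dex, electroporated with a mock control (MMIS_MOCK in the titles), or electroporated with the mir-150-5p mimetic at 150 nM (MMIS_MIMIC), and RNA was taken at 72 h. Each treatment therefore had its own control, untreated cells for Dex and mock cells for the mimetic. All 4 groups were bulk cultures of 1 line, and none had both treatments.

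Dex is a synthetic agonist of the GC receptor (GR, gene NR3C1), which leaves its heat shock protein complex once it binds hormone, enters the nucleus and turns genes on or off. In myeloma cells GCs halt growth and kill, and GCs are a mainstay of treatment. A miRNA mimetic is a short RNA duplex that is loaded into the silencing complex and lowers mRNAs with sites matching its seed. ATF4, to which many of the genes below answer, is the transcription factor of the integrated stress response: it raises genes for amino acid transport, amino acid synthesis and tRNA charging when cells lack amino acids or are stressed.

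The third mimetic array stood apart before any gene was tested. Over the 23277 probes tested, mimetic arrays 1 and 2 correlated with each other at r = 0.998, with the Dex arrays at 0.983 to 0.990, with their own mock arrays at 0.971 to 0.979 and with mimetic array 3 at 0.979 to 0.980. Mimetic array 3 correlated with the mock arrays at 0.992 to 0.995. The array labelled mimetic replicate 3 was therefore closer to the mock arrays than to the other 2 mimetic arrays. Values are from mimetic arrays 1 and 2 (2 mimetic arrays against 3 in each other group) unless all 3 are named. The counts of called genes, and some genes and lists, are given again with all 3. There, 49 of the 155 genes called below were called again. Of 19 plasma cell genes on the array, 18 were over background on all 12 arrays and CD27 on none. Of 33 markers of T cells, monocytes, stroma, erythroid and epithelial cells, 11 were over background on no array, among them CD3D, CD4, CD8A, LYZ, S100A8, LUM and ALAS2, and 19 on some arrays, such as FCGR3A and COL1A2 on 9, S100A9 and EPCAM on 8, and CD2 and ACTA2 on 7. CD68, VIM and HBB were over background on all 12. Of 8 stromal markers, VIM included, 1 was over background on all untreated and on all Dex arrays and 4 on all mock arrays, and the mean level of the list was 7.597 to 7.71 untreated, 7.61 to 7.64 with Dex, 7.59 to 7.83 with the mimetic and 7.83 to 7.84 in mock cells. The part of these markers in the results was not tested. Between 18561 and 21328 probes were over background on an array (detection p under 0.05), and with so few arrays a group the number of arrays limits the precision.

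With mimetic arrays 1 and 2, 155 of the 12306 genes tested (1.26%) differed between treatments at an adjusted p under 0.05 and over 2-fold by limma, which is what called means throughout. Of these, 101 (0.821%) were more positive with Dex and 54 (0.439%) were more negative with Dex. This balance moved with the scaling, to 146 and 26 with each array centred on its median and to 278 and 230 with normexp background correction. The Dex effect itself called 323 genes (2.62%), 114 up (0.926%) and 209 down (1.7%), and the mimetic effect 301 genes (2.45%), 100 up (0.813%) and 201 down (1.63%). No gene was called up with one treatment and down with the other. Among the called genes, one was termed Dex-specific where Dex moved it past both limits in the direction of the difference and the mimetic moved it less than 1.5-fold, which held for 22 genes (9 with a positive and 13 with a negative difference, and 35 in all without Dex array 3), and mimetic-specific in the mirror case, which held for 63 genes (56 positive, 7 negative). In 1 gene, TSC22D3, both treatments raised the level and Dex the more, and in 2 genes, PSAT1 and PHGDH, both lowered it and the mimetic the more. The remaining 67 called genes passed the limits for the difference but met neither definition.

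**Figure D1:**
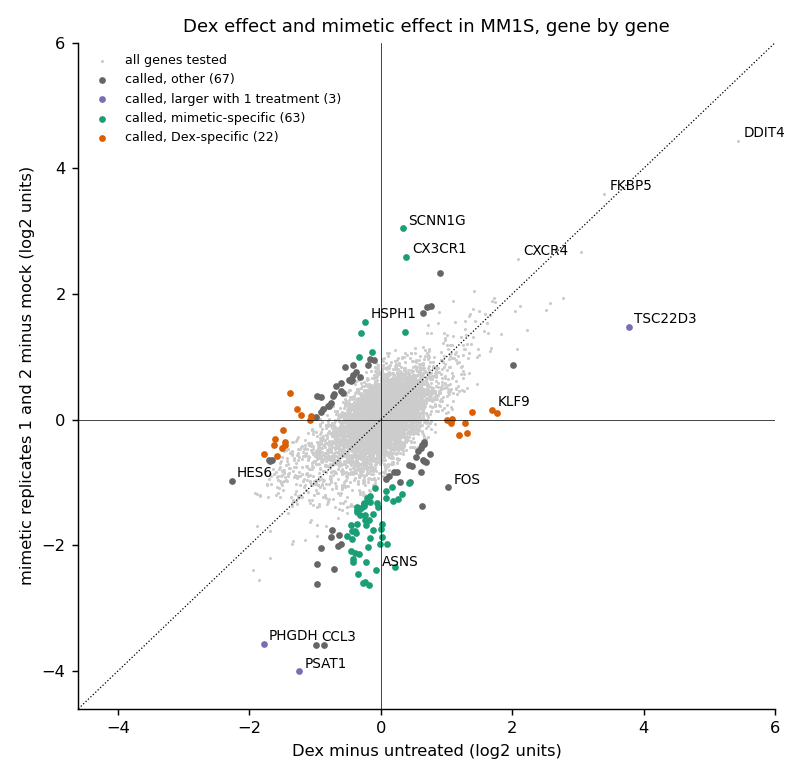
Each point is a gene of MM1S, with the Dex effect on the x axis and the effect of mimetic arrays 1 and 2 on the y axis, both in log2 units; coloured points are the 155 called genes by class and the dotted line marks equal effects. Most mimetic-specific genes lie straight below 0 on the x axis, DDIT4 and FKBP5 lie near the line, and SCNN1G and CX3CR1 are the highest of the mimetic-specific rises.

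The difference of the effects is the sum of 2 parts, the Dex arrays minus the mimetic arrays and the mock arrays minus the untreated arrays, so a gene can be called where Dex and mimetic cells held the same level and only the controls differed. That second part was the larger one in 131 of the 155 called genes, against 7382 of all 12306 genes. Over the called genes the median absolute value of mock minus untreated was 1.05 log2 units, and that of Dex minus mimetic arrays was 0.27. Over all genes these medians were 0.17 and 0.13. Among the 63 mimetic-specific genes they were 1.27 and 0.20. Mock cells had been electroporated and untreated cells had not, and the sources do not say whether both were cultured and hybridised together, so that electroporation and any such difference cannot be told apart. In MM1R, mock minus untreated for the same 155 genes had a median absolute value of 0.289 against 0.145 over all genes, and its sign was that of MM1S in 67 of the 155 and in 6992 of all 12306. On the scale used, the median of mock minus untreated over all genes was 0.01, and with each array centred on its median instead it was 0.25.

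**Figure D2:**
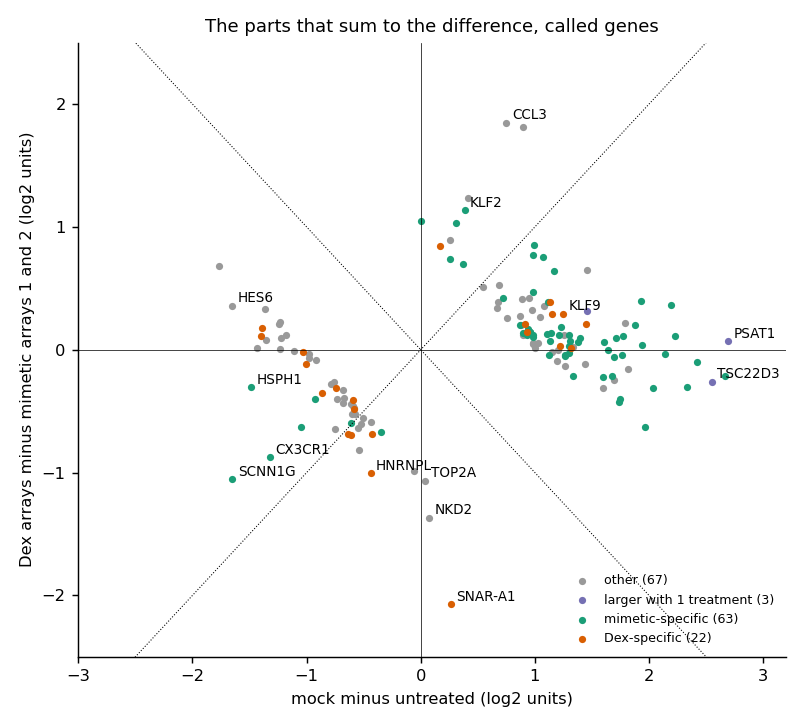
Each point is 1 of the 155 called genes, with mock minus untreated on the x axis and the Dex arrays minus mimetic arrays 1 and 2 on the y axis, in log2 units, so that the 2 coordinates sum to the difference of the effects. Between the dotted diagonals on the left and right the mock part is the larger, which holds for 131 genes; CCL3, NKD2 and SNAR-A1 lie above or below them.

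Genes of the amino acid and ATF4 response made up the leading group among those with a positive difference. Of 29 listed genes tested, 23 were more positive with Dex at an adjusted p under 0.05 (17 of them called) and 1, TXNIP, was more negative, beside 5.02% and 5.53% of all genes. Leaving out 1 array gave 20 to 25 more positive, and none more negative without untreated array 1 or 2 or either mimetic array. Their median difference was 1.12 log2 units, against 0.00 over all genes tested. The median was −1.38 for the mimetic effect, −0.08 for the Dex effect and 1.21 for mock minus untreated, and that between Dex and mimetic arrays was 0.03. With the mimetic, 23 of the 29 fell at an adjusted p under 0.05, which 12.1% of all genes did, and by the medians mimetic cells stood near Dex cells in level. The shares of 5.02% and 5.53% of all genes also stand beside the counts of the difference in the lists below, with mimetic arrays 1 and 2.

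ASNS, asparagine synthetase, a classical ATF4 target, had log2 values of 10.85, 10.87 and 11.11 in untreated cells, 10.87, 10.81 and 10.94 with Dex, 12.84, 12.97 and 12.81 in mock cells, and 10.40 and 10.56 in mimetic arrays 1 and 2. Only the mock cells were high, together with mimetic array 3 at 12.66. The difference of the effects was 2.32 ± 0.15 (SE) log2 units, or 5.00-fold, with a limma adjusted p of 2.47e-08. TRIB3, a pseudokinase that ATF4 induces and that dampens AKT signalling, had 9.61, 9.42 and 9.66 untreated, 9.72, 9.64 and 9.99 with Dex, 11.26, 12.18 and 11.83 in mock, and 9.45 and 9.39 in mimetic arrays 1 and 2. Its difference was 2.56 ± 0.25 (limma adjusted p = 4.12e-06), and the mimetic and mock arrays did not overlap. DDIT3 (CHOP), the stress response factor linked to cell death, ran from 7.96 to 8.01 untreated and from 7.93 to 8.01 with Dex. It ran from 9.37 to 10.21 in mock cells and was at 7.98 and 7.89 in mimetic arrays 1 and 2, a difference of 1.98 ± 0.23. ATF4 itself differed by 1.12 ± 0.14, having fallen by 1.38 with the mimetic, and 2 further ATF4 probes gave 1.84 (adjusted p = 7.76e-06) and 0.10 (adjusted p = 0.887). CEBPB, a bZIP factor that pairs with ATF4, differed by 2.08 ± 0.17, and PPP1R15A, which ends the stress response by dephosphorylating eIF2α, also belonged to the mimetic-specific genes.

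**Figure D3:**
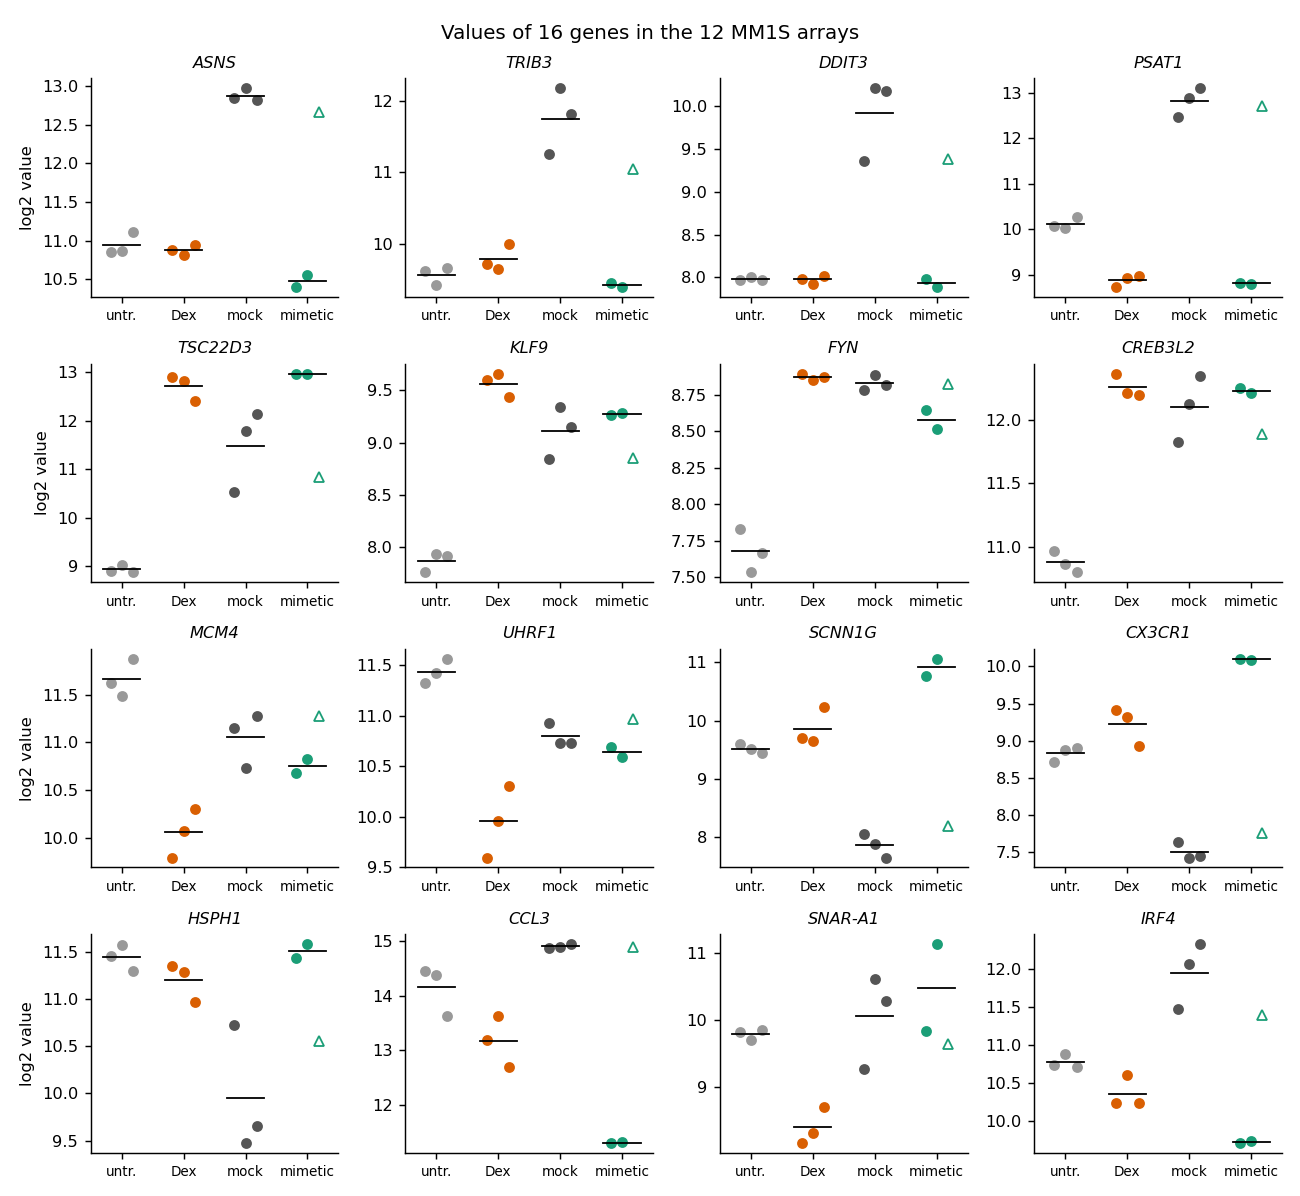
Log2 values of 16 genes on the 12 MM1S arrays, by group (untreated, Dex, mock, mimetic), with a point for each array and a bar at the group mean; open triangles are mimetic array 3, which the mimetic mean leaves out. ASNS, TRIB3, DDIT3 and PSAT1 are high in the mock arrays and in mimetic array 3, and TSC22D3, KLF9, FYN and CREB3L2 are low in the untreated arrays alone.

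ATF4 pairs with C/EBP proteins on the composite letters TTGCATCA. These letters, searched on both strands from 250 bases before to 50 after each RefSeq gene start (GRCh38.p14), occurred in at least 1 window of 77 of 9816 genes tested with a window (0.784%). They occurred in 5 of 27 genes of the amino acid and ATF4 list (18.5%), a list of known ATF4 targets, in 3 of 45 mimetic-specific genes (6.67%) and in 1 of 19 Dex-specific genes (5.26%), ACOT7. The 4 windows of called genes with a positive difference are shown to let the matched letters be read, with the motif, or its reverse complement, in capitals.
CHAC1: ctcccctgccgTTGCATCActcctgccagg
SLC1A5: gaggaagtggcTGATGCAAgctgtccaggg
MARS1: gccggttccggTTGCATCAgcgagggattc
TARS1: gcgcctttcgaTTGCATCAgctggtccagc
The CHAC1 window lay at chr15:40953251-40953280 on the plus strand, with the motif 209 bases before the start, and that of SLC1A5 at chr19:46784893-46784922 on the minus strand, 97 bases before a start. The windows of MARS1 (chr12:57488053-57488082, plus strand) and TARS1 (chr5:33440956-33440985, plus strand) had the motif 4 bases before and 2 bases after the start. CHAC1, which breaks down glutathione, differed by 1.67 ± 0.18, and SLC1A5, a glutamine transporter, by 1.66 ± 0.18. A match describes letters and says nothing of binding. The palindromic GC response element, searched the same way, occurred in 35 of the 9816 genes (0.357%) and in none of the 19 Dex-specific and 45 mimetic-specific genes with a window.

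Serine synthesis and tRNA charging, both under ATF4, ran the same way. Of 16 genes of serine and one-carbon synthesis, 10 were more positive with Dex and 2 (SFXN1 and TYMS) more negative. PSAT1, which makes phosphoserine, was at 10.07, 10.02 and 10.28 in untreated cells, 8.74, 8.94 and 8.97 with Dex, 12.47, 12.88 and 13.09 in mock cells, and 8.82 and 8.81 in mimetic arrays 1 and 2. Dex and mimetic cells ended at the same level, from controls that lay 2.70 log2 units apart. Dex lowered PSAT1 by 1.24 and the mimetic by 4.00, a difference of 2.76 ± 0.20 (limma adjusted p = 1.15e-07), and with all 3 mimetic arrays it was 1.47 ± 0.94 (adjusted p = 0.444). PHGDH, the first enzyme of the pathway, fell by 1.78 with Dex and fell by 3.56 with the mimetic, and PSPH, the last, differed by 2.11 ± 0.25. Of 18 aminoacyl-tRNA synthetases, which charge tRNAs with amino acids, 9 were more positive with Dex, and VARS1 was more negative, at −0.54 ± 0.16 and an adjusted p of 0.0368, which stayed under 0.05 only without untreated array 2, Dex array 3 or mock array 1, 2 genes being more negative without either of the latter pair. GARS1 differed by 1.72 ± 0.19, SARS1 by 1.43 ± 0.18, TARS1 by 1.35 ± 0.19 and NARS1 by 0.98 ± 0.14. The list's median was 0.58 for the difference and 0.59 for mock minus untreated. PCK2, the mitochondrial enzyme that makes phosphoenolpyruvate, had the lowest adjusted p of all genes (1.59e-08) and differed by 2.45 ± 0.15, with further probes at 0.68 (adjusted p = 0.00365) and 0.27 (adjusted p = 0.055). Of 24 endoplasmic reticulum stress and folding genes, 4 were more positive with Dex, beside 5.02% of all genes. Among the 4 were DNAJB9 at 1.21 ± 0.17 and SEL1L at 1.02 ± 0.18. SEL1L came under 2-fold without untreated array 3, Dex array 1, or mock array 2 or 3 (0.90 to 0.99) and with the replicate block (0.93).

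Of 18 plasma cell genes tested, 3 were more positive with Dex at an adjusted p under 0.05, 2 of them called. IRF4, the transcription factor on which myeloma cells depend, was at 10.74, 10.89 and 10.71 untreated, 10.24, 10.61 and 10.23 with Dex, 11.47, 12.06 and 12.32 in mock cells, and 9.72 and 9.73 in mimetic arrays 1 and 2. Here the mimetic arrays lay below every other array, mimetic array 3 at 11.39 included. The difference was 1.81 ± 0.24 (limma adjusted p = 0.000104), of which mock minus untreated gave 1.17 and Dex minus mimetic arrays 0.64. SLAMF7, a surface receptor and antibody target in myeloma, differed by 1.05 ± 0.16. PRDM1 (Blimp-1), the factor that drives plasma cell fate, differed by 0.65 ± 0.20, under the 2-fold limit, and was not called. Further PRDM1 probes gave 0.93 (limma adjusted p = 0.00257), 0.70 (adjusted p = 0.0183) and 0.70 (adjusted p = 0.210). SLAMF7 came under 2-fold without Dex array 1 (0.99), mimetic array 2 (0.92) or mock array 2 (0.999). The other 15 of 18 plasma cell genes, XBP1 and SDC1 among them, did not pass the test, while 5.02% of all genes were more positive.

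In the CCL3 genes the distance between Dex and mimetic arrays was larger than that between the controls. CCL3 (MIP-1α), which myeloma cells release and which stimulates osteoclasts, was at 14.44, 14.38 and 13.62 untreated, 13.19, 13.62 and 12.69 with Dex, 14.87, 14.89 and 14.93 in mock cells, and 11.31 and 11.32 in mimetic arrays 1 and 2. The mimetic arrays lay below the lowest Dex array, while mimetic array 3 was at 14.88. CCL3 fell by 0.98 with Dex and fell by 3.58 with the mimetic, a difference of 2.60 ± 0.28 (limma adjusted p = 1.27e-05), of which Dex minus mimetic arrays made up 1.85 and mock minus untreated 0.75. CCL3L1 and CCL3L3, near-identical copies of CCL3 whose probes may share signal with it, differed by 2.71 ± 0.30 and 1.64 ± 0.26. CCL5 (RANTES), a T cell attractant, differed by 1.34 ± 0.29, with 1.03 of it between Dex and mimetic arrays, whereas a further probe differed by 1.29, with 0.33 between those arrays and 0.96 between the controls. Of 15 chemokine and receptor genes, 5 were more positive and 2 more negative with Dex, beside 5.02% and 5.53% of all genes. The 2 were CX3CR1 and CXCL10. CXCL10, at −1.03 ± 0.18, came under the 2-fold limit without untreated array 1 (−0.97) or 2 (−0.90), Dex array 3 (−0.99) or mock array 2 (−0.996), and with median centring (−0.91).

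Of the 7 mimetic-specific rises, SCNN1G, the γ subunit of the epithelial sodium channel, was the largest. It was at 9.60, 9.51 and 9.45 untreated, 9.69, 9.65 and 10.23 with Dex, 8.06, 7.89 and 7.66 in mock cells, and 10.77 and 11.05 in mimetic arrays 1 and 2. The mimetic arrays lay above every Dex array and the mock arrays below every untreated one. The difference was −2.70 ± 0.21 (limma adjusted p = 3.04e-07), with −1.65 from the controls and −1.05 between Dex and mimetic arrays. CX3CR1, the fractalkine receptor, was at 8.72, 8.87 and 8.90 untreated, 9.41, 9.32 and 8.93 with Dex, 7.64, 7.43 and 7.45 in mock cells, and 10.10 and 10.09 in mimetic arrays 1 and 2, which again were above all others. Its difference was −2.20 ± 0.17, with a further probe at −0.62. DYRK2, a kinase, differed by −1.68 ± 0.23 and CCDC86, a nucleolar protein, by −1.33 ± 0.15.

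Of 23 cytosolic chaperones tested, which include the partners that hold GR ready for hormone, 11 were more negative with Dex, none was more positive and 12, such as HSPA4 (0.20), PTGES3 (0.01) and BAG1 (−0.01), did not pass, with a median difference of −0.46 and a median of −0.51 for mock minus untreated. HSPH1 (HSP105), a co-chaperone of HSP70, was at 11.46, 11.57 and 11.29 untreated, 11.34, 11.28 and 10.97 with Dex, 10.72, 9.48 and 9.65 in mock cells, and 11.43 and 11.58 in mimetic arrays 1 and 2. The mock arrays alone were low, with mimetic array 3 at 10.56, and the difference was −1.79 ± 0.32 (limma adjusted p = 0.0014). HSPA1B, an inducible HSP70, differed by −1.39 ± 0.32, HSP90AA1 by −1.06 ± 0.18, and HSPA8, the constitutive HSP70, by −0.84 ± 0.23. HSPA1B lost its call without mimetic array 2 (−1.36), and HSP90AA1 came under 2-fold without untreated array 1, Dex array 3, mimetic array 2 or mock array 3 (−0.94 to −0.98), with median centring (−0.87) and with the replicate block (−0.97). The count of 11 became 7 without mimetic array 1 and 5 without mimetic array 2. Ribosome biogenesis followed the chaperones: 12 of 24 genes were more negative and none more positive, with a median of −0.55. The list's median was −0.40 for mock minus untreated and −0.04 between Dex and mimetic arrays. With all 3 mimetic arrays, 1 gene was more negative, beside 2.12% of all genes. BOP1 and NOP16, both needed to mature the large ribosomal subunit, differed by −0.94 ± 0.22 and −0.80 ± 0.18. The count of 12 was 2 without mimetic array 1, 3 without mimetic array 2, 4 with median centring, and 6 without Dex array 1, untreated array 3 or mock array 2. Of 21 genes of glucose uptake and glycolysis, 6 were more negative, GPI at −0.80 ± 0.20 and TPI1 at −0.68 ± 0.17 among them.

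**Figure D4:**
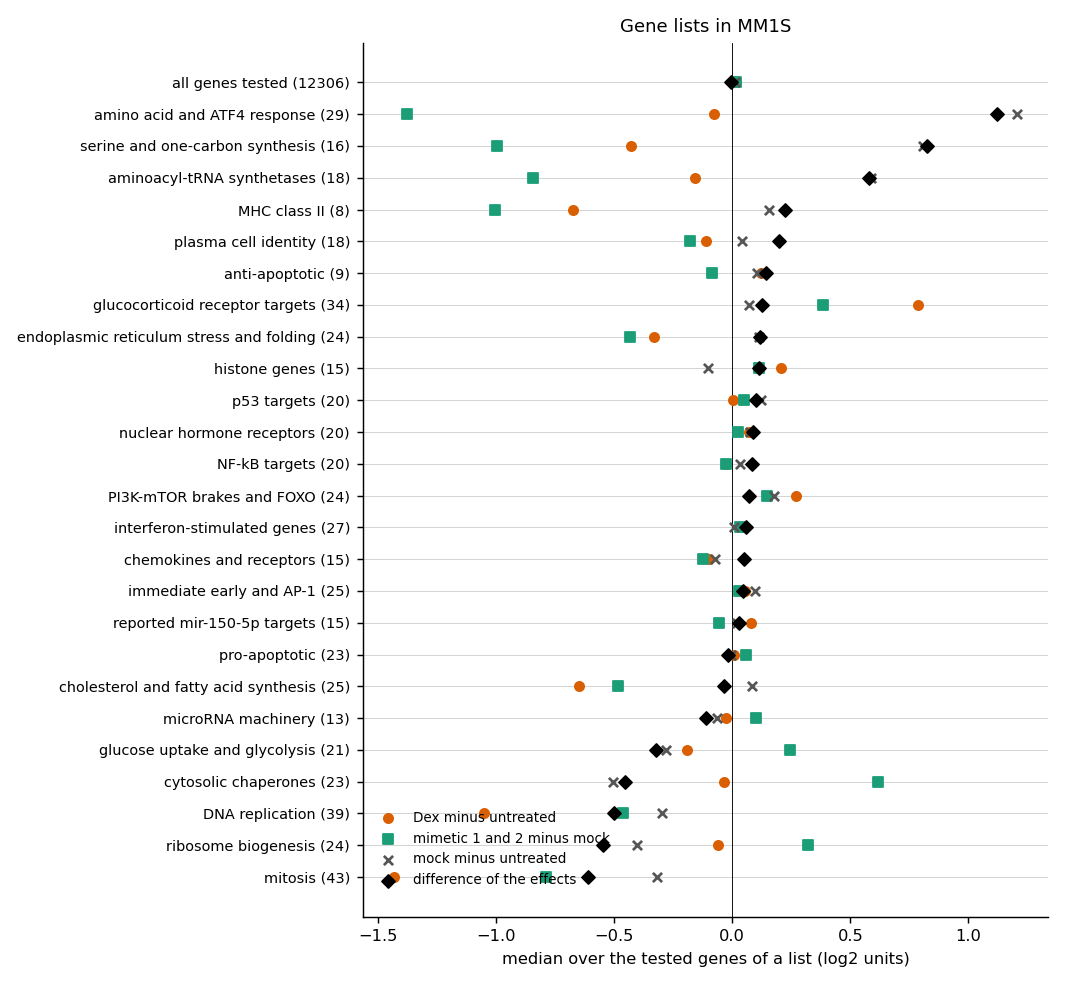
Medians over the tested genes of each list (number in brackets) of the Dex effect, the effect of mimetic arrays 1 and 2, mock minus untreated and the difference of the effects, in log2 units. In the amino acid and ATF4 list the diamond (difference, 1.12) sits by the cross (mock minus untreated, 1.21), whereas in mitosis (−0.61) and DNA replication (−0.50) the diamond lies beyond the cross.

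Dex-specific rises began with KLF9, a Krüppel-like factor and direct GR target. KLF9 was at 7.76, 7.93 and 7.91 untreated, 9.59, 9.66 and 9.43 with Dex, 8.85, 9.34 and 9.15 in mock cells, and 9.26 and 9.28 in mimetic arrays 1 and 2. It rose by 1.70 with Dex and moved by 0.16 ± 0.13 with the mimetic, and the mimetic arrays fell within the range of the mock arrays. The difference was 1.54 ± 0.17 (limma adjusted p = 1.87e-05), of which 1.25 was mock minus untreated. FYN, a Src family kinase, was at 7.83, 7.53 and 7.67 untreated and between 8.51 and 8.89 on all other arrays, mimetic array 3 included, a difference of 1.44 ± 0.14. CREB3L2, a bZIP factor of the secretory pathway, was likewise at 10.80 to 10.96 untreated and at 11.83 to 12.36 in the Dex, mock and both mimetic arrays. The other rises were LINC00623 at 1.66 ± 0.18, PARP8 at 1.52 ± 0.16, SERPINI1 (neuroserpin) at 1.33 ± 0.18, ZCCHC7 at 1.13 ± 0.16, KLHL24 at 1.08 ± 0.17 and PAPSS2 at 1.01 ± 0.15. PAPSS2, which makes the sulfate donor PAPS, was the 1 member of these 9 in which Dex minus mimetic arrays (0.84) exceeded mock minus untreated (0.17). Its arrays were at 7.79, 7.72 and 7.74 untreated, 8.98, 8.77 and 8.54 with Dex, 7.86, 7.90 and 8.003 in mock cells, and 7.88 and 7.97 in mimetic arrays 1 and 2. The Dex arrays alone were high, although the difference came under 2-fold without untreated array 2, Dex array 1, mimetic array 1 or mock array 3 (0.90 to 0.996), with the replicate block (0.97) and with separate normalization of the transfected and the other arrays (0.96), as that of KLHL24 did without mock array 2 (0.96).

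Of 34 known GR targets tested, Dex raised 23 and the mimetic 17, at an adjusted p under 0.05 that 15% and 13.4% of all genes passed upward. The difference left fewer: 8 were more positive with Dex (4 called) and 2, TXNIP and SGK1, more negative, with a median difference of 0.13. Of all genes, 5.02% were more positive and 5.53% more negative, and the 2 were a share near the latter. TSC22D3 (GILZ), a direct GR target that restrains NF-κB and AP-1, was at 8.91, 9.01 and 8.87 untreated, 12.90, 12.81 and 12.40 with Dex, 10.52, 11.79 and 12.13 in mock cells, and 12.96 and 12.97 in mimetic arrays 1 and 2. The mimetic arrays lay just above the Dex arrays without overlap, and mock cells lay above untreated ones by 2.55. It rose by 3.77 with Dex and by 1.48 with the mimetic, a difference of 2.29 ± 0.38 (limma adjusted p = 0.000786), with further probes at 2.45 and 1.10. TGFBR2, the type II TGF-β receptor, differed by 1.15 ± 0.19, with further probes at 1.20 (adjusted p = 0.000377) and 0.01 (adjusted p = 0.964). DDIT4 (REDD1), an inhibitor of mTORC1, rose by 5.43 with Dex and by 4.43 with the mimetic, so that the difference of 0.997 ± 0.15 lay at the 2-fold limit. FKBP5, a co-chaperone that feeds back on GR, rose by 3.40 with Dex and by 3.59 with the mimetic, and its difference of −0.19 ± 0.19 had a limma adjusted p of 0.608. CXCR4, the receptor that keeps plasma cells in the marrow, rose by 2.08 and 2.56, with a difference of −0.48 ± 0.16 (adjusted p = 0.0729). The 8 became 5 without mimetic array 1 and 5 without mimetic array 2. The 2 became 0 without untreated array 1 or 2, either mimetic array or mock array 2, and 1 without Dex array 1 or 3 or mock array 1.

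The 13 Dex-specific falls included genes of DNA replication and cell division. Of those given here, the mimetic also lowered CDC20 (−0.55), TRIP13 (−0.58) and GINS2 (−0.46) at an adjusted p under 0.05, by less than 1.5-fold. Its effect on MCM4, UHRF1, ZWINT and CCNF did not pass. MCM4, a subunit of the replicative helicase, was at 11.63, 11.49 and 11.88 untreated, 9.79, 10.07 and 10.31 with Dex, 11.15, 10.73 and 11.27 in mock cells, and 10.68 and 10.82 in mimetic arrays 1 and 2. The Dex arrays lay below all others. Dex lowered MCM4 by 1.61 and the mimetic effect was −0.30 ± 0.16, a difference of −1.31 ± 0.22 (limma adjusted p = 0.000919) with parts of −0.61 in the controls and −0.69 between Dex and mimetic arrays. UHRF1, which maintains DNA methylation through replication, differed by −1.32 ± 0.21, with Dex arrays between 9.60 and 10.30 and mimetic arrays at 10.68 and 10.59. CDC20, which switches on the ubiquitin ligase of anaphase, was at 10.06 to 10.66 with Dex and 10.18 and 10.21 in the mimetic arrays, so its difference of −1.22 ± 0.23 came with mock cells that were 1.39 lower than untreated ones. ZWINT, a kinetochore protein, differed by −1.22 ± 0.23, GINS2 by −1.05 ± 0.21, CCNF by −1.06 ± 0.22 and TRIP13 by −1.004 ± 0.24. A further MCM4 probe gave −0.98 (limma adjusted p = 0.0115), just under the 2-fold limit. Further ZWINT probes gave −0.73 (adjusted p = 0.00759) and −0.21 (adjusted p = 0.212). A further UHRF1 probe gave −0.38, with −0.40 in the controls and 0.01 between Dex and mimetic arrays. Leaving out 1 array took GINS2 under the 2-fold limit (Dex array 1, −0.91, or mock array 3, −0.93), CCNF (untreated array 3, −0.96, Dex array 1, −0.92, or Dex array 2, −0.99) and TRIP13 (untreated array 3, Dex array 1 or 2, mimetic array 1 or mock array 1, −0.80 to −0.96). Median centring did so for GINS2 (−0.91), CCNF (−0.93) and TRIP13 (−0.88), the replicate block for GINS2 (−0.93) and array weights for TRIP13 (−0.98).

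Dex lowered all 43 mitosis genes tested and the mimetic 42 of them, at an adjusted p under 0.05 that 13.8% and 12.1% of all genes passed downward. Their difference was negative at an adjusted p under 0.05 in 22 genes and positive in none, with a median of −0.61, made of −0.32 in the controls and −0.29 between Dex and mimetic arrays by the lists' medians. TOP2A, the topoisomerase that untangles chromosomes, was at 11.78, 11.61 and 11.70 untreated, 9.79, 10.16 and 10.16 with Dex, 11.61, 11.71 and 11.89 in mock cells, and 11.14 and 11.07 in mimetic arrays 1 and 2. Both controls were alike and the mimetic arrays lay between them and the Dex arrays, with a difference of −1.02 ± 0.17 (limma adjusted p = 0.000871). BIRC5 (survivin) differed by −1.06 ± 0.19. Both came under 2-fold without Dex array 1 (−0.90 and −0.93) or mock array 1 (−0.96 and −0.94), TOP2A also without untreated array 1 (−0.98) or mimetic array 1 (−0.99), and BIRC5 without mimetic array 2 (−0.95). Median centring took both under it (−0.92 and −0.90), and array weights BIRC5 (−0.95). Of 39 DNA replication genes, 13 were more negative and none more positive, with a median of −0.50. In bulk cultures, fewer dividing cells and less of these RNAs per cell cannot be told apart. The mitosis count was 7 without mimetic array 2, 10 without mimetic array 1, 13 without Dex array 1, 14 without untreated array 3 and 10 with median centring. The replication count was 5 without mimetic array 1 and 5 without mimetic array 2, and 25 without Dex array 3.

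In 24 called genes the distance between Dex and mimetic arrays exceeded that between the controls. Besides the CCL3 genes, CCL5 on the probe used, MCM4, UHRF1, TOP2A and PAPSS2, SNAR-A1, a small noncoding RNA, was at 9.81, 9.70 and 9.86 untreated, 8.18, 8.32 and 8.71 with Dex, 9.28, 10.60 and 10.29 in mock cells, and 9.84 and 11.12 in mimetic arrays 1 and 2. Dex arrays were low and the transfected arrays scattered, and the difference of −1.81 ± 0.42 was no longer called without mimetic array 2 (−1.17). NKD2, an inhibitor of Wnt signalling, was at 9.99 to 10.12 untreated, 9.51 to 9.74 with Dex, 9.96 to 10.35 in mock cells, and 11.12 and 10.90 in mimetic arrays 1 and 2. It was low with Dex and high with the mimetic, a difference of −1.29 ± 0.17 (limma adjusted p = 0.000117). HNRNPL, a splicing factor, differed by −1.45 ± 0.25. KLF2, a Krüppel-like factor of quiescence, was at 10.43 and 10.38 in mimetic arrays 1 and 2 and between 11.18 and 11.86 in untreated, Dex and mock cells, and differed by 1.52 ± 0.23. CDKN1A (p21), an inhibitor of cyclin-dependent kinases, differed by 1.07 ± 0.28, a call lost without untreated array 3, Dex array 1 or 2, either mimetic array or mock array 2 (0.84 to 1.07). RASSF2, a tumour suppressor, rose by 1.69 with the mimetic, with a difference of −1.05 ± 0.18.

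NR3C1, the receptor itself, moved by −0.16 ± 0.08 with Dex and fell by 0.34 with the mimetic, and the difference of 0.18 ± 0.12 had a limma adjusted p of 0.407. A further NR3C1 probe did not show that fall. It moved by 0.07 with Dex and by −0.05 with the mimetic, a difference of 0.12 (limma adjusted p = 0.527). Of 20 nuclear hormone receptor genes, NR3C2 (the mineralocorticoid receptor, 0.43 ± 0.10) and NR1D2 (0.41 ± 0.12) differed. MYB, a transcription factor and known mir-150-5p target, fell by 1.59 with Dex and by 0.83 with the mimetic, and it was the 1 of 15 reported mir-150-5p targets to differ, at −0.76 ± 0.22. FOS, a subunit of AP-1, was at 7.48, 7.62 and 6.88 untreated and 9.03, 9.11 and 6.92 with Dex, so 1 Dex array was at the untreated level. The 6.88 and 6.92 lay near the mean levels of CD27 (6.89) and CD4 (6.90), which were over background on no array. The FOS difference may thus rest in part on levels that were not measured. Its difference of 2.10 ± 0.57 was called, but not without untreated array 3, Dex array 1 or 2, either mimetic array, or mock array 2 or 3 (1.73 to 2.12). BCL2, which blocks apoptosis, differed by 1.13 ± 0.20, with further probes at 1.26 (adjusted p = 0.000143) and −0.03 (adjusted p = 0.93), and MCL1, its relative on which myeloma cells rely, by 0.95 ± 0.16, with a further probe at 0.33 (adjusted p = 0.308). For BCL2, mock minus untreated was 1.26 and Dex minus mimetic arrays −0.14, and for MCL1 they were 0.55 and 0.40. With all 3 mimetic arrays BCL2 differed by 0.89 (limma adjusted p = 0.0739) and MCL1 by 0.81 (adjusted p = 0.0302). Of 23 pro-apoptotic genes, 2 were more positive with Dex, a share near the 5.02% of all genes, PMAIP1 (NOXA) at 0.82 ± 0.12 and TNFSF10 (TRAIL) at 0.54 ± 0.13, and PMAIP1 was over background on 0 of 3 Dex arrays, so its value is not an exact difference. In either direction, 3 of 25 genes of cholesterol and fatty acid synthesis, 4 of 27 interferon-stimulated genes and 4 of 20 NF-κB targets passed an adjusted p of 0.05, beside 1299 of the 12306 genes tested.

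With all 3 mimetic arrays, the number of called differences fell to 72 of 12306 (0.585%), 27 more positive (0.219%) and 45 more negative (0.366%) with Dex. The 27 became 12 without untreated array 3, 14 without Dex array 1, 15 without Dex array 2 or mock array 2, 51 without mock array 1 and 101 without mimetic array 3, and the 45 became 20 without Dex array 1, 28 without mock array 2 and 69 without Dex array 3. Of the 155 genes called with mimetic arrays 1 and 2, 49 were called again, 21 positive and 28 negative. Among those not called again were CCL3 at 1.41 (limma adjusted p = 0.435), CX3CR1 at −1.42 (adjusted p = 0.194) and CCL5 at 0.69 (adjusted p = 0.56). The mimetic effect itself called 94 of the 12306 genes, against 301 with mimetic arrays 1 and 2. There were 41 Dex-specific and 2 mimetic-specific genes. Mimetic array 3 lay near the mock arrays, so adding it drew the mimetic effect toward no change. The Dex-specific genes had been chosen for a small mimetic effect, and both fits share all other arrays. Their return, and the signs kept, are therefore a description and no separate support. Among the 22 Dex-specific genes above, 21 were so again and 21 still passed an adjusted p of 0.05, the exception to the latter being SNAR-A1 at 0.0826. All 63 mimetic-specific genes kept the sign of their difference, and 4 of them passed an adjusted p of 0.05, for TRIB3 with 2.01 ± 0.46 (limma adjusted p = 0.0274) and for ASNS not, with 1.60 ± 0.54 (adjusted p = 0.114). In the amino acid and ATF4 list 3 genes were more positive, and in mitosis 14 were more negative, at an adjusted p under 0.05 that 1.24% and 2.12% of all genes passed. These became 23 and 22 without mimetic array 3. Of the 4 mimetic-specific genes that passed with all 3 mimetic arrays, the 3 besides TRIB3 were KLF2, FNDC3A and CCDC86. The SE was 0.15 and then 0.54 for ASNS, where mimetic array 3 lay with the mock arrays, and 0.14 and then 0.15 for FYN, where it lay near both groups.

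**Figure D5:**
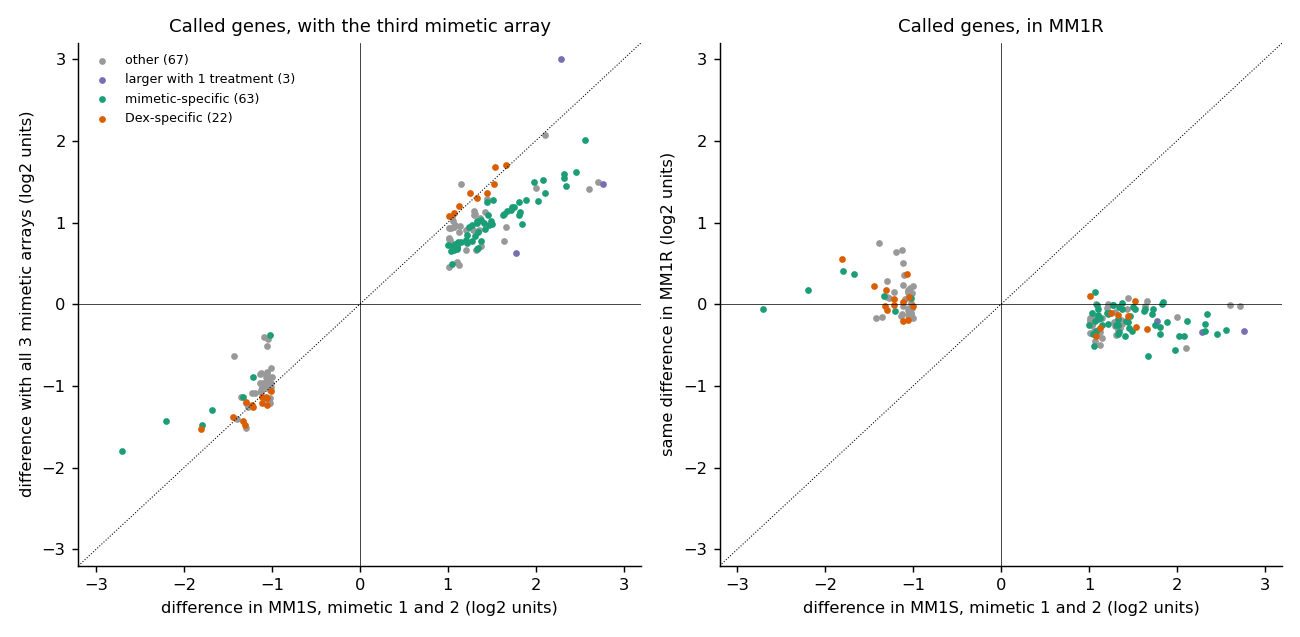
The 155 called genes by class: the x axes give the difference of the effects in MM1S with mimetic arrays 1 and 2, and the y axes give it with all 3 mimetic arrays (left) and in MM1R (right), in log2 units, with dotted lines of equality. On the left, Dex-specific genes keep to the line and mimetic-specific genes lie nearer to 0; on the right, all genes lie within 1 unit of 0.

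In MM1R the same difference called 0 genes (0%): the lowest limma adjusted p was 0.994, and 990 of the probes had an unadjusted p under 0.05. The 155 genes had a median absolute difference of 1.27 log2 units in MM1S and 0.171 in MM1R. The difference between the lines was itself called in 236 genes (1.92%), 154 more positive (1.25%) and 82 more negative (0.666%) in MM1S, while 3.53% of all genes passed the adjusted p alone. Among the 236 were 132 of the 155 genes. The 155 were chosen for their MM1S difference, which is 1 side of that comparison, so this overlap and the medians above are a description. ASNS had a difference of −0.33 in MM1R, TRIB3 −0.31, KLF9 −0.28, CCL3 0.00 and SCNN1G −0.05. Mock minus untreated was 1.93 for ASNS in MM1S and −0.36 in MM1R, and 1.25 and −0.42 for KLF9. With all 3 mimetic arrays the lines differed in 67 genes, 30 positive and 37 negative.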

How the data were processed

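The deposited log2 values had been quantile normalized by the authors over all 24 arrays, and set against the log2 signals deposited before normalization they differed from limma's quantile normalization by a median of 0.000138. The deposited detection p-values give each probe's level against negative control beads. The submitters' processing notes name limma 3.14.1; the build was not given in the sources used here. Of 47224 probes, 4 with a missing value were left out, 30106 had 1 gene symbol and 8 had several, and the 23277 with a detection p under 0.05 on 3 or more of the 12 MM1S arrays were tested, with or without a symbol. Each gene took the probe with the highest mean over these arrays, which gave 12306 genes.

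Group means were fitted with limma 3.58.1 (R 4.3.3; lmFit, contrasts.fit, eBayes with trend), once with mimetic arrays 1 and 2 and once with all 3, and p-values were adjusted by Benjamini-Hochberg over all probes tested. The difference was (Dex − untreated) − (mimetic − mock), and values after ± are standard errors. The arrays came from independent experiments per the methods, and p-values measure the spread between the cultures used within each group. With mimetic arrays 1 and 2 they leave out the spread that mimetic array 3 adds. They do not measure any difference between the transfected and the other experiments. Named genes were the 15 largest called differences each way, the 10 largest rises and falls of each class, the genes the study named and up to 4 genes a list each way, with further called genes chosen after their values were seen. The samples, members, lists and tests were chosen with earlier results of these data known. The script was tested on simulated data. Arrays with the same number were not treated as pairs: their deviations correlated at 0.0718 to 0.218 (Dex and untreated) and 0.0225 to 0.125 (mimetic and mock). Arrays with different numbers correlated at −0.151 to 0.0993 and −0.173 to 0.14. Untreated array 3 and Dex array 3 gave the 0.218, against −0.151 to −0.106 for either with other numbers. Whether that pair shared an experiment was not tested. Promoter letters came from RefSeq (GRCh38.p14). Alternatives covered normalization, background correction, filter, fit, thresholds, probes and each array left out.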

Additional observations from a re-analysis of the deposited data

Results flagged for a closer look

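The 15 largest called differences each way, 30 genes in all, were compared between the lines, MM1S minus MM1R, and 28 of them passed a limma adjusted p of 0.05. Since the genes were chosen for the MM1S difference, which is 1 side of that comparison, the values are a description. Genes of amino acid supply and the stress response had values, in log2 units, of 3.09 for PSAT1, 2.87 for TRIB3, 2.82 for PCK2, 2.65 for ASNS, 2.56 for SLC6A9, 2.54 for DDIT3, 2.46 for CEBPB, 2.31 for PSPH and 2.16 for CCPG1. CBS, the first enzyme of transsulfuration, was over background on 0 of 3 Dex arrays, so its fitted 2.41 rests on a Dex level that was not measured and is neither an exact difference nor a bound. CCL3L1 had 2.73, TSC22D3 2.64, CCL3 2.60 and STOM 2.47.

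The negative ones were −2.65 for SCNN1G, −2.38 for CX3CR1, −2.37 for SNAR-A1, −2.21 for HSPH1, −2.14 for HSPA1B, −2.05 for DYRK2, −1.67 for HNRNPL, −1.58 for HES6, −1.48 for MCM4, −1.43 for CCDC86, −1.39 for NKD2, −1.30 for UHRF1, −1.26 for PCP4 and −1.23 for ACOT7. FOS and MIX23 were the 2 that did not pass.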

How the results depend on the processing

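None of the 75 called genes that the naming rules picked reversed under an alternative, each read on its own probe. Called genes added to the text later, such as CHAC1, SLC1A5, PPP1R15A and RASSF2, were not followed through the alternatives. Further probes are given at the end. With mimetic arrays 1 and 2, the 101 positive and 54 negative differences became 146 and 26 with median centring (84.9% positive against 65.2%), 278 and 230 with normexp background correction (54.7% positive), and 618 and 681 with no fold limit; an adjusted p under 0.001 left 31 negative. Dex-specific genes numbered 109, 510 and 14, and mimetic-specific genes 126 and 641, with normexp, no fold limit and, for the 14, the stricter p. With all 3 mimetic arrays, 27 positive and 45 negative became 42 and 21 with median centring, 99 and 163 with normexp, 2 and 0 at the stricter p, and 153 and 261 with no fold limit, and array weights gave 114 positive. Leaving out 1 array gave 92 to 129 positive, 42 to 73 negative, 17 to 35 Dex-specific (35 without Dex array 3) and 58 to 81 mimetic-specific genes, and with all 3 mimetic arrays 12 (without untreated array 3) to 101 (without mimetic array 3) positive and 20 (without Dex array 1) to 69 (without Dex array 3) negative. The replicate block gave 94 positive and 50 negative, 24 Dex-specific and 62 mimetic-specific genes, and 37 and 49 with all 3 arrays. Of the 75 called genes picked by the naming rules, 57 kept the call in every setting with mimetic arrays 1 and 2. FOS lost it without untreated array 3, Dex array 1 or 2, either mimetic array, mock array 2 or 3, and with normexp, and SNCAIP in 8 settings. Genes not called changed sign in 31 values over 12 results, RELA, SKP2 and FKBP5 among them. Of 26 named called genes with a further probe tested, 7 had one with the other sign or an adjusted p of 0.05 or more: ATF4, BCL2, MTFP1, PCK2, SLC6A9, TGFBR2 and ZWINT. Of the genes given with differences under 2-fold, MCL1, NR3C2, PRDM1, SGK1 and TPI1 had such a probe. So did CXCR4 and NR3C1, whose own differences did not pass either. In the block fit with mimetic arrays 1 and 2, mock array 3 has no partner and gives no information.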
